A study of Mus musculus with 16 samples.

Results

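The 8 genes described here encode the ligands of the inhibitory receptor PD-1, PD-1 itself, and proteins that T cells carry when they are activated repeatedly and become exhausted. They are Cd274 (PD-L1), Pdcd1lg2 (PD-L2), Pdcd1 (PD-1), Lag3 (LAG-3), Havcr2 (TIM-3), Tigit (TIGIT), Tox (TOX) and Tnfrsf9 (4-1BB). They were picked by name from the 21959 genes listed in the raw count tables. The rule used no measured value, but earlier results of these data were known when it was set. All 8 had enough counts to be tested, as did 13968 genes in all.

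RNA was sequenced from liver metastases of 16 mice, with 4 mice in each of 4 groups. All were male wild-type C57BL/6 mice that received MC38 cells, a colon adenocarcinoma line, by injection into the hemispleen at 6 weeks of age, a route by which cells seed the liver. The control group received PBS. The SB525334 group was given SB525334, an inhibitor of the kinase of TGF-beta receptor I (ALK5), by mouth each day at 20 mg/kg. The KN046 group was given KN046, a bispecific antibody against PD-L1 and CTLA-4, intraperitoneally at 10 mg/kg 2 times a week. The combination group was given both agents. The libraries are of whole tumor tissue from 1 injected cell line, so the counts pool tumor cells, immune cells, stroma and any adjacent liver.

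PD-1 is switched on in T cells after antigen recognition and dampens T cell receptor signaling when PD-L1 or PD-L2 is bound. PD-L1 is made by many cell types, including tumor cells and myeloid cells, and is induced by interferon-gamma, whereas PD-L2 is largely restricted to dendritic cells and macrophages. LAG-3, TIM-3 and TIGIT are further inhibitory receptors that accumulate with PD-1 on T cells under chronic stimulation. TOX is a nuclear factor that installs the exhausted state, and 4-1BB is a costimulatory receptor of the TNF receptor family that marks recently activated T cells.

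Total counts ranged from 18368994 to 23877131 per mouse. The controls formed 2 pairs, since control 1 resembled control 2 and control 3 resembled control 4 more closely than mice of a group otherwise did. The median chi-square between the counts of a gene was 1.25 and 0.956 in these pairs, against at least 2.82 in every other pair of mice within a group. Both pairs still differed by more than sampling noise, 24.8% and 18.1% of genes lying beyond the 95% point of the chi-square distribution, and all 4 controls were kept as separate samples, as labelled. This excess does not show that they are 4 animals, since repeat libraries of 1 animal can also differ by more than counting noise. Should each pair be 1 animal, the control n would be 2. The p-values against control and of the interaction would then rest on too large an n. Values with each pair averaged or left out are given where they end a call, but only for the genes described at the start. For other genes such values are given only for KN046 against control, where averaging left 0 calls. Their other calls against control and in the interaction may therefore not hold. Over all genes, averaging the pairs changed the calls from 1343 to 1008 for SB525334 against control and from 598 to 297 for the interaction. For the combination against control they went from 1552 to 1162. Nothing in the labels states whether the mice of a group were housed or sampled together, so p-values measure the spread between these samples.

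Cd274 and Pdcd1lg2 are neighbors on the plus strand of chromosome 19 (GRCm39). Cd274 spans chr19:29344529-29365495 and Pdcd1lg2 starts 22823 bases beyond its end, at chr19:29388319-29448882. The other members lie apart, with Pdcd1 at chr1:93966027-93980312, Lag3 at chr6:124881320-124888765, Havcr2 at chr11:46345673-46374149, Tigit at chr16:43469100-43484509, Tox at chr4:6686353-6991644 and Tnfrsf9 at chr4:150999019-151030559. Cd274 shares 219 exonic bases with Plgrkt on the opposite strand, and since the strand setting of the counting is not given in the sources used here, reads from these bases cannot be told apart. The same holds for 581 bases of Cd274 shared with the noncoding Gm36043 and for 403 bases of Tox shared with the noncoding Gm11802, both on the opposite strand and not analysed here. Plgrkt, named here after its values were seen, moved by between -0.17 and 0.28 on the log2 scale in the 6 comparisons and passed the test in 0 of them (edgeR, smallest adjusted p 0.327).

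RefSeq promoter windows (table build GRCm38.p6, placed on GRCm39 by exact match) were found for 6 members, in 7 windows of 250 bases ending at the annotated start. The upstream part outside the gene's own GENCODE exons is shown for Pdcd1, Tigit and Tnfrsf9, which differed together in the comparison of the effect of SB525334 with and without KN046, and for the ligand Pdcd1lg2. Capitals mark matches to 4 motifs searched on both strands. The window of Cd274 lies wholly within its annotated exons and is not shown.
Pdcd1, chr1:93980313-93980528, minus strand: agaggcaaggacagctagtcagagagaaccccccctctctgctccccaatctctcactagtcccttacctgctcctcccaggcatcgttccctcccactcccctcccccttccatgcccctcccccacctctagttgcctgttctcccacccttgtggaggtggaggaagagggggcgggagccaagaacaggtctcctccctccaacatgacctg
Tigit, chr16:43484548-43484797, minus strand: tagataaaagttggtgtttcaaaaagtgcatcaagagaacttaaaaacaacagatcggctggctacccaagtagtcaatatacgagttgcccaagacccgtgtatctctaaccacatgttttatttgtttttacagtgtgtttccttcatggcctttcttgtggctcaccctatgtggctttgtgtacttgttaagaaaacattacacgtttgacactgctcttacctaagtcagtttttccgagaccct
Tnfrsf9, first window, chr4:151004362-151004611, plus strand: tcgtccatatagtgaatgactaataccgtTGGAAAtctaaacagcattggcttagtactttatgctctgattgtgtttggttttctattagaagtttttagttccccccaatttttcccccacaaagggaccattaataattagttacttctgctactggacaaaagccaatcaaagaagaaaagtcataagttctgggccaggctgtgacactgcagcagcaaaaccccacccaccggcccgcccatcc
Tnfrsf9, second window, chr4:151012206-151012374, plus strand: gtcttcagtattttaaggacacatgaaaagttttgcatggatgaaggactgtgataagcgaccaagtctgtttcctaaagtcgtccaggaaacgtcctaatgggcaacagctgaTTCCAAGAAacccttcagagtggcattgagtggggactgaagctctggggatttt
Pdcd1lg2, chr19:29388069-29388318, plus strand: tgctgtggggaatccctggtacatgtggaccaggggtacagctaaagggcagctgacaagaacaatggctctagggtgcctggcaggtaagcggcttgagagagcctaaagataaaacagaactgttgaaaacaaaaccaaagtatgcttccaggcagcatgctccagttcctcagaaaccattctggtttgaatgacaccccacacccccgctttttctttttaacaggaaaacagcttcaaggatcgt

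The core of the interferon-stimulated response element (ISRE) was found in 0 of the 7 member windows and in 2.98% of 32851 RefSeq windows of the same length. The gamma-activated site TTCNNNGAA was found in 1 member window, the second of Tnfrsf9, against 7.02% of all windows. The letters TGANTCA, a loose form of the AP-1 element in which N is any base, occurred in 2 member windows, against 6.75%. These were the Havcr2 window, as TGATTCA, and the second Tnfrsf9 window, as TGAGTCA. Neither match is printed above, as the Havcr2 window is not shown. The Tnfrsf9 match, 15 to 9 bases upstream of the start, lies in the 81 bases left out of that window. The NFAT core TGGAAA occurred in 1 member window, the first of Tnfrsf9, against 18.6%. Matches of letters are a description of these windows and say nothing of factor binding.

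To compare levels between genes, levels in CPM, the usual library-scaled count, on edgeR's TMM scale, were divided by exonic length in kilobases. In control tumors, Tnfrsf9 had the highest level at 6.69 ± 1.16 CPM per kb (SD, n = 4), followed by Tigit at 5.11 ± 0.19, Cd274 at 3.32 ± 0.997, Pdcd1 at 2.77 ± 0.13, Lag3 at 2.07 ± 0.242, Havcr2 at 2.01 ± 0.735, Pdcd1lg2 at 0.96 ± 0.606 and Tox at 0.261 ± 0.0639. The ranges of neighbors in this order overlapped for Cd274 and Pdcd1, for Lag3 and Havcr2, and for Havcr2 and Pdcd1lg2. Tnfrsf9 and Tigit had the highest levels in all 4 groups, although their ranges overlapped in the SB525334, KN046 and combination groups. Tox was the lowest in each group, and in the KN046 and combination groups its range overlapped that of Pdcd1lg2. Cd274 moved in the order, from rank 3 in the control, KN046 and combination groups to rank 6 with SB525334.

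**Figure D1:**
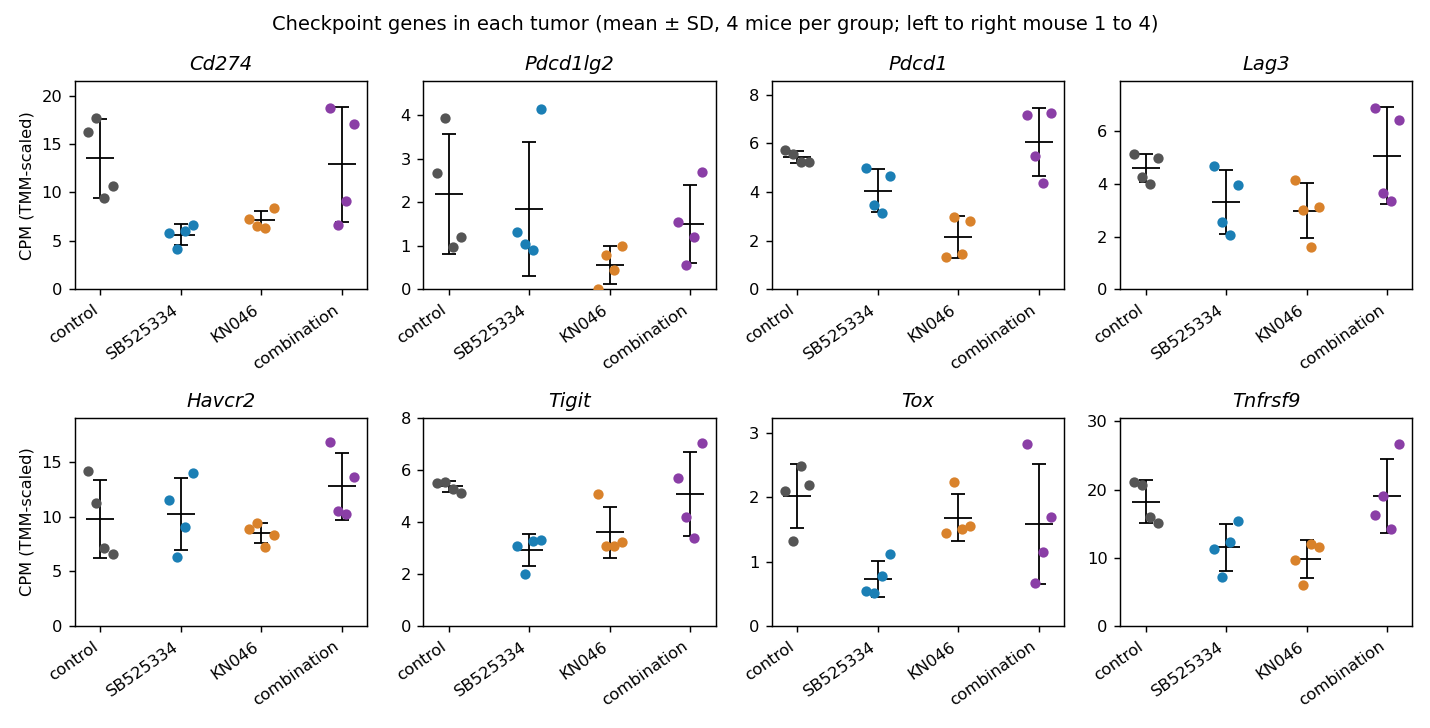
Level of each of the 8 genes in each tumor in CPM on the TMM scale (vertical axis) for the 4 treatment groups, with points for mice 1 to 4 from left to right and bars for mean ± SD. Pdcd1 fell below all controls in all 4 KN046 tumors, and Cd274 was below all controls in both single-agent groups, with a mean of 13.5 CPM in control and 12.9 CPM in combination tumors.

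Cd274, which encodes the PD-L1 that KN046 binds, was lower with SB525334 alone and was near the control level in the combination group. In the 4 control tumors Cd274 was at 16.3, 17.7, 9.43 and 10.7 CPM. With SB525334 it was at 5.83, 4.14, 5.98 and 6.68 CPM, with KN046 at 7.25, 6.51, 6.37 and 8.37 CPM, and with both agents at 18.7, 6.62, 9.17 and 17.1 CPM. No tumor of either single-agent group reached the lowest control, whereas the combination tumors spanned the control range, with 2 high and 2 low mice. The group means were 13.5 ± 4.07 CPM in control, 5.66 ± 1.08 with SB525334, 7.12 ± 0.912 with KN046 and 12.9 ± 5.91 in combination tumors (SD, n = 4 each).

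Against control, the fall of Cd274 with SB525334 was 2.39-fold (log2 fold change -1.26, SE 0.29, edgeR quasi-likelihood test, Benjamini-Hochberg adjusted p 0.00681). Without control 1 and control 2, which held the 2 high control values, the log2 fold change was -0.83 with an adjusted p of 0.208, and without control 3 and control 4 it was -1.58 with an adjusted p of 0.00322. With KN046 the log2 fold change was -0.93 (SE 0.29) and did not pass the test (adjusted p 0.0766). The combination differed from control by -0.07 (95% interval -0.67 to 0.53, adjusted p 0.916). The decreases and increases are of whole tissue, in which fewer cells of a type and less RNA per cell cannot be told apart.

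Pdcd1lg2, the second ligand, varied widely within groups. It was at 2.67, 3.93, 0.964 and 1.2 CPM in control, 1.31, 1.04, 0.904 and 4.14 CPM with SB525334, 0, 0.778, 0.447 and 0.987 CPM with KN046, and 1.54, 0.552, 1.2 and 2.69 CPM in combination tumors. The groups overlapped in both single-agent comparisons with control. Of the KN046 tumors 1 had no read for the gene, which allows up to 3 counts. The log2 fold change with KN046 was -1.97 (SE 0.73, adjusted p 0.119), with a 95% interval from -3.5 to -0.44. The ratio of Pdcd1lg2 to Cd274, with 0.1 CPM added to both, passed the test in 0 of 4 comparisons (exact two-sided permutation tests, adjusted p between 0.343 and 0.4). The smallest p that 4 mice against 4 allow is 0.0286, so a single separated comparison could not pass after adjustment over 4. The log2 difference of the ratio between KN046 and control was -1.18, and -0.48 with 0.5 CPM added.

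Pdcd1, the receptor, was lowest in the KN046 group. Its level was 5.73, 5.59, 5.22 and 5.23 CPM in control tumors and 1.33, 2.97, 1.45 and 2.81 CPM in KN046 tumors. It was 4.97, 3.46, 3.14 and 4.65 CPM with SB525334 and 7.19, 5.46, 4.37 and 7.26 CPM with both agents. Every KN046 tumor was therefore below every tumor of the other 3 groups, and the combination tumors surrounded the control values. The fall with KN046 against control was 2.53-fold (log2 fold change -1.34, SE 0.28, adjusted p 0.0232). It was of similar size whichever mouse was left out (-1.53 to -1.17), but the adjusted p rose to 0.0502 without control 2, 0.0534 without control 3, 0.0521 without control 4, 0.0702 without KN046 mouse 1 and 0.058 without KN046 mouse 3. With each control pair averaged to 1 sample the adjusted p was 0.211, and 0 of 14223 genes passed in this comparison. It was 0.0507 without controls 1 and 2, 0.0766 without controls 3 and 4 and 0.0797 for the 8 mice alone. The change with SB525334 was -0.42 (SE 0.26, adjusted p 0.44).

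Lag3, whose product binds MHC class II, was at 5.12, 4.26, 4.01 and 4.96 CPM in control, 4.66, 2.55, 2.07 and 3.96 with SB525334, 4.16, 3.01, 1.62 and 3.12 with KN046, and 6.88, 3.64, 3.33 and 6.41 in combination tumors. The groups overlapped, and Lag3 passed the test in 0 of the 6 comparisons. Havcr2, which encodes TIM-3 and is also expressed by myeloid cells, also passed it in 0 of 6. It was at 14.2, 11.2, 7.15 and 6.64 CPM in control and 16.8, 10.5, 10.2 and 13.6 CPM with the combination, and ranged from 6.33 to 14 CPM with SB525334 and from 7.26 to 9.38 CPM with KN046. Its log2 fold changes against control were 0.06 for SB525334, -0.21 for KN046 and 0.38 for the combination (SE 0.26 each).

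Tigit was at 5.51, 5.54, 5.27 and 5.12 CPM in control and at 3.07, 1.99, 3.27 and 3.32 CPM with SB525334, with no overlap between these groups. With KN046 it was at 5.06, 3.06, 3.07 and 3.22 CPM, again with no overlap with control. With the combination it was at 5.7, 4.19, 3.38 and 7.02 CPM. The fall with SB525334 was 1.84-fold (log2 fold change -0.88, SE 0.25, adjusted p 0.0331). The estimate stayed between -0.95 and -0.73 when single mice were left out, while the adjusted p exceeded the threshold on leaving out any mouse other than SB525334 mouse 4, and reached 0.124 without SB525334 mouse 2. It was 0.172 with the control pairs averaged, 0.187 without controls 1 and 2 and 0.0786 without controls 3 and 4. With KN046 the log2 fold change was -0.57 (SE 0.25, adjusted p 0.188).

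Tox was at 2.1, 1.33, 2.49 and 2.19 CPM in control and at 0.542, 0.518, 0.775 and 1.12 CPM with SB525334, where every tumor was below every control. It was at 1.44, 2.24, 1.51 and 1.56 CPM with KN046 and at 2.82, 0.662, 1.15 and 1.7 CPM with the combination. The fall with SB525334 was 2.73-fold (log2 fold change -1.45, SE 0.40, adjusted p 0.0253). It rests on 12 to 26 reads per SB525334 tumor, and the adjusted p stayed under the threshold only without control 2 or without SB525334 mouse 4, reaching 0.0954 without SB525334 mouse 1. The call rested on controls 3 and 4, without which the log2 fold change was -1.21 with an adjusted p of 0.128, against -1.66 and 0.046 without controls 1 and 2. With the pairs averaged the adjusted p was 0.108. With KN046 the log2 fold change of Tox was -0.26 (SE 0.38, adjusted p 0.718).

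Tnfrsf9, the costimulatory receptor, was at 21.1, 20.7, 15.9 and 15.1 CPM in control, 11.3, 7.17, 12.4 and 15.4 with SB525334, 9.75, 5.98, 12 and 11.5 with KN046, and 16.3, 19.1, 14.2 and 26.7 in combination tumors. The KN046 tumors did not overlap with the control tumors. Neither decrease passed the test, with a log2 fold change of -0.66 (SE 0.25, adjusted p 0.133) for SB525334 and -0.89 (SE 0.25, adjusted p 0.057) for KN046.

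Counted over the 8 genes, SB525334 alone lowered 3 (Cd274, Tigit and Tox) and raised 0, where 9.22% of all tested genes were called lower and 0.394% higher. KN046 alone lowered 1 (Pdcd1) and raised 0, where 2.4% were called lower and 1.6% higher, 559 genes in all and between 21 and 2096 when single mice were left out. With the control pairs averaged, SB525334 lowered 1 of 8 and KN046 0 of 8. In 4 of 8 members all SB525334 tumors were below all controls (Cd274, Pdcd1, Tigit and Tox), as in 13.3% of all genes. In 4 of 8 all KN046 tumors were (Cd274, Pdcd1, Tigit and Tnfrsf9), as in 6.65%. The estimates were below 0 for 7 of 8 members with SB525334 and for 8 of 8 with KN046, as for 49.9% and 53.3% of all genes, with medians of -0.57 and -0.76 on the log2 scale against 5.9e-04 and -0.03 over all tested genes. The combination against control called 0 of 8, also at an unadjusted p under 0.05, where 9.74% of genes were called lower and 1.37% higher after adjustment, and 14.1% and 8% before it. DESeq2 called 0 of 8 in that comparison too, and 4 of the 8 estimates were above 0, as were 51.7% of all. The 3 comparisons share the 4 control tumors. Under DESeq2, KN046 lowered 4 members in place of 1, adding Cd274 (adjusted p 0.0293), Pdcd1lg2 (0.0474) and Tnfrsf9 (0.016), where that tool called 4.58% of 14463 genes lower and 4.07% higher.

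**Figure D2:**
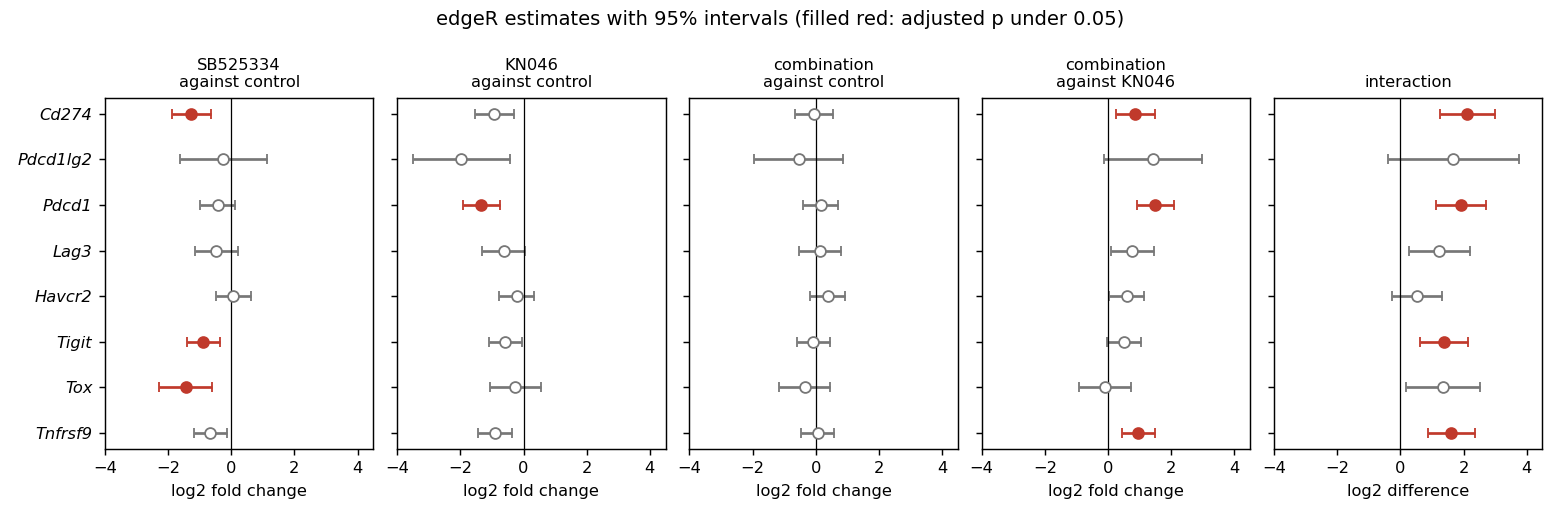
Log2 fold changes of the 8 genes with 95% intervals in 5 comparisons (edgeR), with the interaction as a difference of log2 fold changes. Filled red points had an adjusted p under 0.05. The single-agent estimates lie mostly left of 0, those of the combination around 0, and those of the interaction right of 0.

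The 4 groups also allow the question whether SB525334 changed these genes differently in the presence of KN046. The interaction, defined as the difference of combination and KN046 minus the difference of SB525334 and control, was positive for 8 of 8 genes, and for 51.1% of all genes, with a median of 1.5, against 9.3e-03 over all genes. It passed the test for Cd274 (2.12, SE 0.41, adjusted p 0.00561), Pdcd1 (1.92, SE 0.38, adjusted p 0.00642), Tnfrsf9 (1.62, SE 0.36, adjusted p 0.0132) and Tigit (1.38, SE 0.36, adjusted p 0.0369). These are 4 of 8, where 1.73% of all tested genes were called higher and 2.55% lower. SB525334 alone went with a fall of Cd274 by 1.26, while adding it to KN046 went with a rise of 0.86. Cd274 and Pdcd1 stayed past the threshold in each of the 12 other settings and on leaving out each of the 16 mice. Tnfrsf9 passed on leaving out each single mouse, but not with the control pairs averaged (adjusted p 0.0546) or without controls 1 and 2 (0.0663).

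Tigit was less firm in the interaction. Its estimate was between 1.18 and 1.58 on leaving out single mice, but the adjusted p exceeded the threshold without any one of the 4 controls, without SB525334 mouse 1, 2 or 3, without KN046 mouse 3 or 4 and without combination mouse 1 or 4. The highest of these was 0.103, without combination mouse 4. It was 0.135 with the control pairs averaged, 0.0905 without controls 1 and 2 and 0.0873 without controls 3 and 4. Lag3 (1.24, SE 0.45, adjusted p 0.158) and Tox (1.36, SE 0.56, adjusted p 0.215) had intervals that excluded 0 before adjustment only. Pdcd1lg2 (1.68, SE 0.98) and Havcr2 (0.53, SE 0.37) had adjusted p of 0.415 and 0.505.

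Adding SB525334 to KN046 raised Pdcd1 2.83-fold (log2 fold change 1.5, SE 0.28, adjusted p 6.98e-04), with no overlap between the groups. It raised Tnfrsf9 1.95-fold (0.96, SE 0.25, adjusted p 0.0118), again with no overlap, and Cd274 1.81-fold (0.86, SE 0.29, adjusted p 0.0407). These 3 of 8 compare with 9.89% of all genes called higher, and 14.5% were called lower. The rises of Pdcd1 and Tnfrsf9 passed on leaving out each single mouse. That of Cd274 did not pass without KN046 mouse 1 (adjusted p 0.0775), 2 (0.0702) or 3 (0.0846), without combination mouse 1 (0.113) or without combination mouse 4 (0.12), the tumors with the 2 high values, nor for the 8 mice alone (0.0898), with limma-voom (0.0881) or with limma on the deposited normalized values (0.0757). Lag3 (0.77, SE 0.32, adjusted p 0.0893) and Havcr2 (0.59, SE 0.26, adjusted p 0.108) did not pass, although each combination tumor had more Havcr2 than each KN046 tumor. Such separation was found for 3 of 8 members (Pdcd1, Havcr2 and Tnfrsf9) and 7.9% of all genes. Tox differed by -0.09 (95% interval -0.91 to 0.73).

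Adding KN046 to SB525334 raised Cd274 2.28-fold (log2 fold change 1.19, SE 0.29, adjusted p 0.0249), the only member called in this comparison, where 0.544% of all genes were called higher and 3.03% lower. One combination tumor, at 6.62 CPM, lay within the SB525334 range. The call was lost without SB525334 mouse 1 (adjusted p 0.0694), 2 (0.11) or 3 (0.0568) and without combination mouse 1 (0.127) or 4 (0.115), for the 8 mice alone (0.0863) and with limma-voom (0.107). Every combination tumor had more Tigit than every SB525334 tumor, with a log2 fold change of 0.80 (SE 0.25) that did not pass the test (adjusted p 0.124). Tigit was 1 of 8 members so separated, as were 2.43% of all genes.

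The summed T cell genes had their lowest group mean with KN046, as had Pdcd1, Lag3, Havcr2 and Tnfrsf9. Of these receptors only Pdcd1 passed the test against control with KN046, and Tigit had its lowest mean with SB525334. The part of T cell genes in the receptor results was not tested beyond the ratios given next. Of 15 tested T cell marker genes, KN046 lowered 8 and SB525334 lowered 0, where 2.4% and 9.22% of all genes were called lower, with medians of -1.42 and -0.58. The combination called 0 of 15 against control and 13 of 15 higher than KN046, where 9.89% of all genes were called higher. With the control pairs averaged, none of these or any other KN046 calls against control remained, as 0 genes passed. By flow cytometry the study reported more CD8+ and CD4+ T cells in liver metastases with KN046 alone. Its CD8+ values were shares of CD45+ cells, a measure unlike RNA levels of whole tissue. The summed level of the 16 listed T cell genes was 55.2 to 72.0 CPM in control, 32.7 to 53.6 with SB525334, 14.3 to 32.7 with KN046 and 46.7 to 107 CPM with the combination. The CD3 genes Cd3d, Cd3e and Cd3g, which encode chains of the T cell receptor complex and none of which was at 0, summed to 12.2 ± 0.846 CPM in control, 7.6 ± 2.12 with SB525334, 3.52 ± 1.71 with KN046 and 14.4 ± 3.47 CPM in combination tumors (SD, n = 4).

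Set against the CD3 sum of the same tumor, all 6 of the receptors and Tox had a higher mean with KN046 than in control, though none of the differences passed after adjustment. These ratios are not levels per T cell, since other cells also express several members. With KN046, Havcr2 at 8.48 CPM and Tnfrsf9 at 9.82 CPM were above the mean CD3 sum of 3.52 CPM. Lag3 was at 0.383 ± 0.0663 times the CD3 sum in control tumors and at 0.938 ± 0.398 with KN046. Havcr2 was at 0.806 ± 0.308 in control and at 2.7 ± 0.962 with KN046, Tigit at 0.444 ± 0.0275 and 1.21 ± 0.602, and Tox at 0.174 ± 0.0461 and 0.55 ± 0.194. In each of these 4 genes all KN046 ratios lay above all control ratios. Pdcd1 had ratios of 0.451 ± 0.0363 in control and 0.648 ± 0.162 with KN046, which overlapped.

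On the log2 scale the KN046 ratios exceeded control by 1.21 for Lag3, 1.74 for Havcr2, 1.29 for Tigit and 1.65 for Tox. Each had an exact two-sided permutation p of 0.0286, the smallest that 4 mice against 4 allow, and an adjusted p of 0.0686 over the 24 ratio tests. The combination ratios were lower than those with KN046 by the same test (p 0.0286, adjusted p 0.0686), at -1.34 for Lag3, -1.52 for Havcr2, -1.63 for Tigit and -2.32 for Tox. With SB525334 the Pdcd1 ratio was 0.547 ± 0.0392, above all controls by a log2 difference of 0.28 (p 0.0286, adjusted p 0.0686), while the Tigit ratio differed by -0.17 (p 0.457). The combination had a lower Tigit ratio than all controls, by -0.33 (p 0.0286, adjusted p 0.0686). In all, 0 of 24 tests passed after adjustment and 10 had the smallest possible p. At that limit no test could pass over 24 unless many others also reached it. The ratios divide by few reads in KN046 tumors, where the CD3 sum was as low as 1.84 CPM. Its mean was 12.2 CPM in control and 3.52 CPM with KN046. Lag3, Havcr2, Tigit and Tox themselves were not higher with KN046, at log2 fold changes of -0.62, -0.21, -0.57 and -0.26. Only the denominator thus moved toward higher ratios. With all listed T cell genes as denominator the 4 differences from control were 0.82, 1.34, 0.90 and 1.25, and that of Pdcd1 was 0.10 in place of 0.49.

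**Figure D3:**
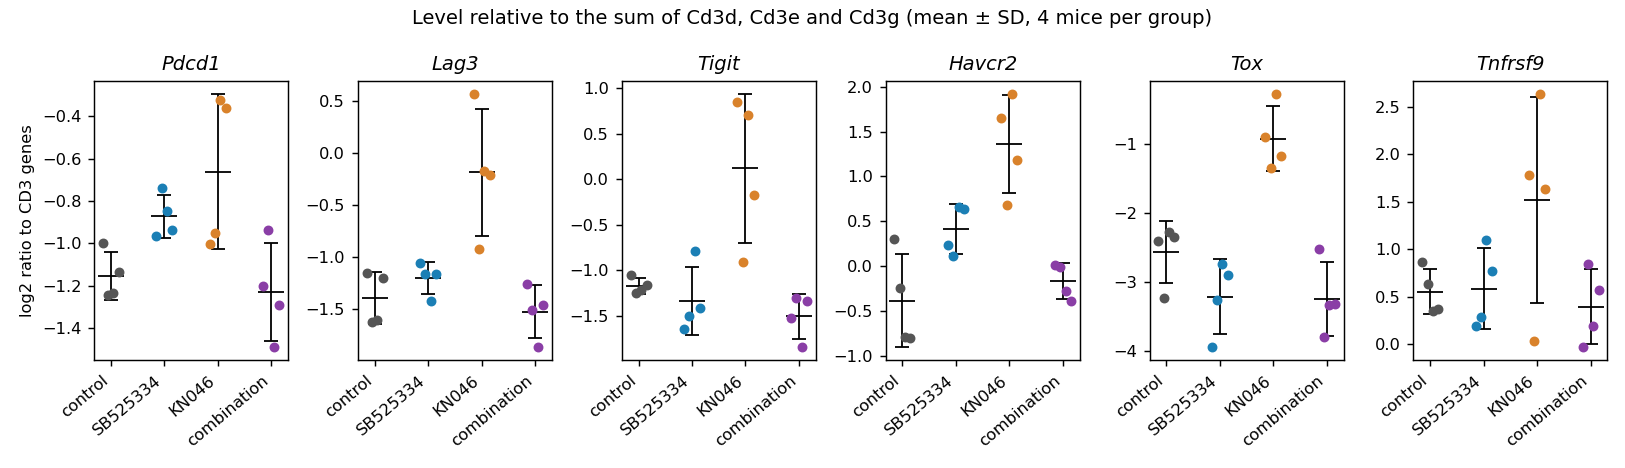
Log2 ratio of 6 genes to the summed CPM of Cd3d, Cd3e and Cd3g in each tumor (vertical axis, own range per panel), by group, with bars for mean ± SD. The 4 KN046 tumors lie above the 4 control tumors for Lag3, Havcr2, Tigit and Tox, and their spread is wide.

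Of 17 genes that encode binding partners of the 8 proteins, SB525334 lowered 5, KN046 lowered 5, and the combination lowered 3 against control. Over all tested genes 9.22%, 2.4% and 9.74% were called lower, shares that also stand beside the lists below. KN046 lowered the MHC class II genes whose products LAG-3 recognizes, with H2-Aa at 309 ± 8.26 CPM in control and 135 ± 58.1 with KN046 (log2 fold change -1.19, SE 0.30, adjusted p 0.0386). H2-Ab1 and H2-Eb1 fell by 1.23 and 1.15 on the log2 scale. KN046 also lowered Tnfsf9, the ligand of 4-1BB, from 6.65 ± 0.972 to 3.43 ± 1.22 CPM (-0.96, SE 0.25, adjusted p 0.042), and Cd226, which competes with TIGIT for its ligand, from 1.45 ± 0.563 to 0.313 ± 0.211 CPM (adjusted p 0.0396). Against KN046, the combination had 5 of the 17 higher and 3 lower, where 9.89% and 14.5% of all genes were so called. Among those higher were Tnfsf9 (1.12, adjusted p 0.00339), H2-Aa (1.34, adjusted p 0.00349) and Cd226 (2.00, adjusted p 0.0157). The 3 lower were Fgl1, Ceacam1 and Clec4g, which had the smallest p of the list. The interaction called 2 of 17 higher and 1, Fgl1, lower, where 1.73% and 2.55% of all genes were so called. It was positive for Tnfsf9 (1.52, SE 0.34, adjusted p 0.0158), as it was for its receptor gene Tnfrsf9, and for Cd226 (2.94, adjusted p 0.0317).

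The partners lowered with SB525334 were of another kind. Fgl1, a LAG-3 ligand secreted by hepatocytes, was at 158 ± 46.5 CPM in control, 17.6 ± 8.04 with SB525334 and 0.277 ± 0.101 with the combination, where each tumor held 3 to 7 reads. Clec4g, a lectin of liver sinusoidal endothelium that LAG-3 binds, was at 8.85 ± 5.55 CPM in control and 0.712 ± 0.449 with SB525334, and had reads in only 1 of 4 combination tumors. Ceacam1, a TIM-3 partner, fell from 39.7 ± 3.59 to 23.2 ± 0.849 CPM with SB525334 and to 15.3 ± 4.82 CPM with the combination. Lgals9 and Nectin2, which encode partners of TIM-3 and TIGIT, fell by 0.57 and 0.34 with SB525334 (adjusted p 0.0245 and 0.0476). Cd80, which encodes a partner of PD-L1 and CTLA-4, did not pass against control with SB525334 (-0.67, adjusted p 0.232), KN046 (-0.76, adjusted p 0.148) or the combination (-0.37, adjusted p 0.508).

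Hepatocyte genes moved with the same comparisons. Of 38 tested hepatocyte genes, SB525334 lowered 37, the combination lowered 37 and KN046 lowered 0. Their summed level was 26321 to 33386 CPM in control, 1325 to 3824 with SB525334, 15570 to 32744 with KN046 and 249 to 423 CPM with the combination, where Serpina1c was at 0 in all 4 tumors. The part of this difference in the values of the 8 genes was not tested. Computing the library scaling without the listed hepatocyte genes changed none of the calls given above for them. That setting alters only the scaling, so it cannot address a different share of liver tissue between tumor samples.

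**Figure D4:**
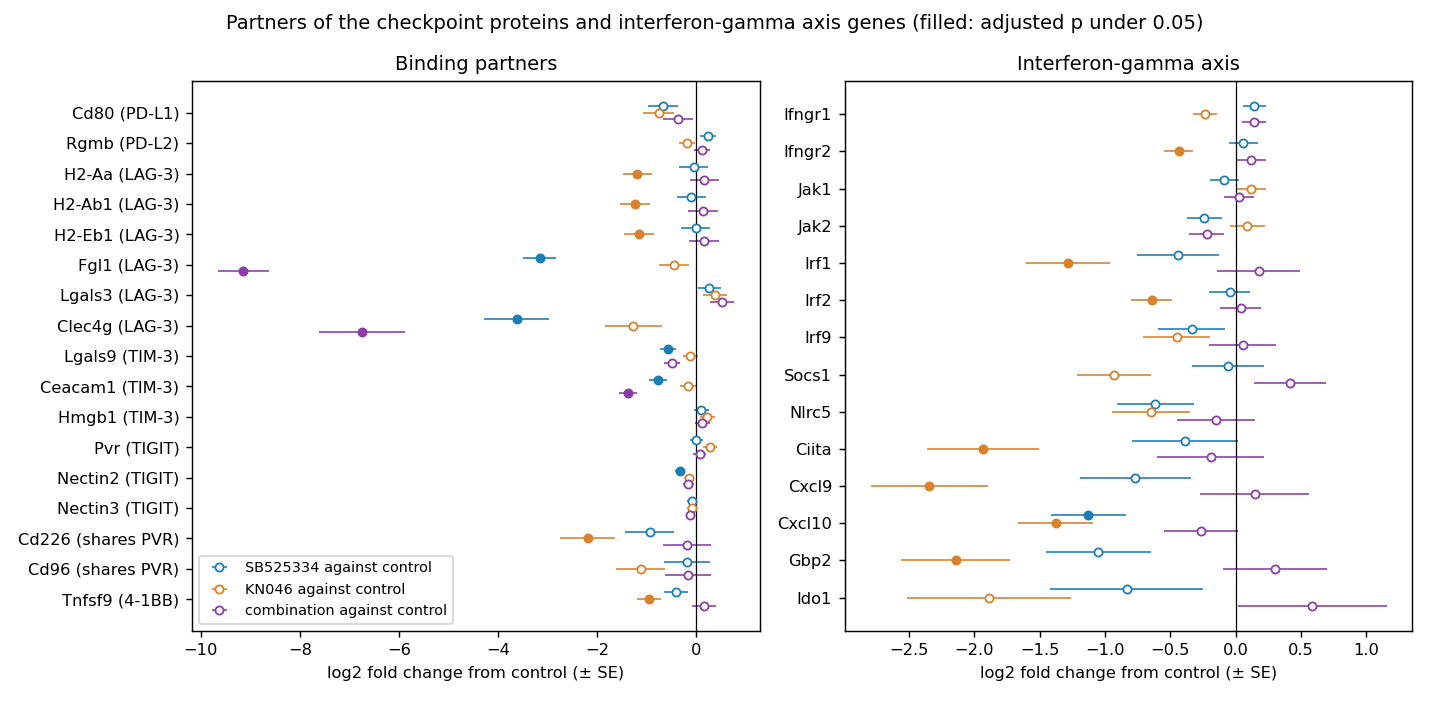
Log2 fold changes from control ± SE (edgeR) of binding partners, with the checkpoint protein in brackets, and of 14 interferon-gamma axis genes, for the 3 treatments. Filled points had an adjusted p under 0.05. Cxcl9 and Gbp2 lie farthest left among the filled KN046 points of the second panel, at -2.35 and -2.14. Clec4g had no reads in 3 of 4 combination tumors, so its fitted value there carries no size.

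The interferon-gamma axis, which induces PD-L1, was described by its receptors, kinases, transcription factors and targets. Of 15 tested genes, KN046 lowered 8, SB525334 lowered 1, and the combination changed 0 against control (medians -0.93, -0.39 and 0.12). Cxcl9, a T cell attracting chemokine, was at 61.9 ± 18.4 CPM in control and 12.1 ± 8.05 CPM with KN046 (log2 fold change -2.35, SE 0.45, adjusted p 0.017). Gbp2, an interferon-induced GTPase, fell by 2.14 on the log2 scale (SE 0.42, adjusted p 0.0187). The SB525334 call was Cxcl10, from 44.8 ± 2.33 to 20.5 ± 4.68 CPM (adjusted p 0.0132). The combination exceeded KN046 in 11 of 15, and the interaction was positive and past the test in 7 of 15, among them Gbp2 (3.50, SE 0.58, adjusted p 0.00159) and Cxcl9 (3.26, SE 0.61, adjusted p 0.00453). Ifng itself had too few counts to be tested.

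Among 13 tested further checkpoint and costimulatory receptors, KN046 lowered Cd27, from 2.45 ± 0.674 to 0.684 ± 0.269 CPM (adjusted p 0.0271), and Cd160, from 1.28 ± 0.142 to 0.269 ± 0.185 CPM (adjusted p 0.0462). SB525334 and the combination changed 0 of 13 against control. Ctla4, the second target of KN046, was at 2.42 ± 1.42 CPM in control and 0.63 ± 0.416 with SB525334 (log2 fold change -1.94, SE 0.63, adjusted p 0.065). Against KN046, the combination had higher Vsir (0.49, SE 0.13, adjusted p 0.0107) and Cd28 (1.13, SE 0.39, adjusted p 0.0438). The interaction was positive for Cd27 (2.25, adjusted p 0.0297) and Cd28 (2.03, adjusted p 0.043), and Cd28 encodes the costimulatory receptor on which PD-1 signaling acts.

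The exhaustion programme was represented by 29 tested genes of transcription factors, surface proteins and cytokine receptors. SB525334 lowered 5 of them, among them Id2, Rgs16, Id3 and Cd38. Of these Id2 and Id3, inhibitors of E proteins that shape effector and memory T cells, fell by 1.33 and 1.37 on the log2 scale (adjusted p 6.38e-04 and 0.00346). KN046 lowered Tbx21, the gene of T-bet, from 2 ± 0.238 to 0.504 ± 0.154 CPM (adjusted p 0.0166), as well as Cxcr6 and Il21r, and raised Nfatc2 from 10.4 ± 1.75 to 22.7 ± 10.9 CPM (adjusted p 0.0313). The combination against control lowered 3 of 29, Id3, Cd38 and Id2, near the 9.74% of all genes called lower. It raised 1, Cxcr5, a receptor of follicular T and B cells, whose level spread widely at 1.56 ± 2.32 CPM, where 1.37% of all genes were called higher. The interaction was past the test for Tbx21 (2.86, SE 0.50), Cxcr6 (2.97, SE 0.68) and Il21r (1.98, SE 0.53). Many of these genes are also expressed outside T cells.

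Cells other than T cells express several members, and their marker lists moved in part. The 10 macrophage genes summed to 981 to 1066 CPM in control, 893 to 1327 with SB525334, 637 to 1162 with KN046 and 986 to 1095 CPM with the combination. KN046 and SB525334 changed 0 of these 10 against control, and the combination lowered 1. Against KN046 the combination raised 5 and lowered 1, where 9.89% and 14.5% of all genes were so called. The 9 dendritic cell genes summed to 52.8 to 88.9 CPM in control and 24 to 53.7 CPM with KN046, with 0 of 9 called. The 5 Kupffer cell genes fell in 5 of 5 with SB525334 and with the combination, from 162 to 331 CPM in control to 9.6 to 24.3 and 1.5 to 12.4 CPM. The 7 neutrophil genes summed to 105 to 121 CPM in control and 8.5 to 19.9 with SB525334, where Ly6g was at 0 and 6 of 7 were called lower. With KN046 they summed to 16.7 to 26.8 CPM, where 1 of 7 was called lower. All tumors of both single-agent groups were thus below all controls, as they were for Cd274, Pdcd1 and Tigit. In the combination group 3 tumors were at 5.8 to 18.9 CPM and mouse 4 was at 151 CPM. The 6 B cell genes, of which the combination raised 2 against control and 4 against SB525334, summed to 4.9 to 9.6 CPM in control, 1.8 to 5.7 with SB525334 and 4.5 to 16.6 with KN046. They stood at 24.4 and 63.5 CPM in combination mice 1 and 4 and at 3.92 and 3.98 CPM in mice 2 and 3. Mice 1 and 4 were also the combination tumors with the higher T cell sums and the higher levels of every member except Tnfrsf9. NK cell genes, of which 4 of 8 were tested, summed to 42.5 to 50.1 CPM in control and 20.7 to 42.0 CPM with KN046. The 6 endothelial genes summed to 219 and 218 CPM in controls 1 and 2 and to 86.5 and 90 CPM in controls 3 and 4. They summed to 35.7 to 79 CPM with SB525334, which lowered 5 of 6, while the combination lowered 2 and KN046 0. Of 6 epithelial genes SB525334 lowered 2, the combination 5 and KN046 0. Their sum was 149 to 249 CPM in control and 6.4 to 16.1 with the combination. Of 9 fibroblast genes the combination lowered 2 and the single agents 0. The part of these lists in the results for the 8 genes was not tested.

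**Figure D5:**
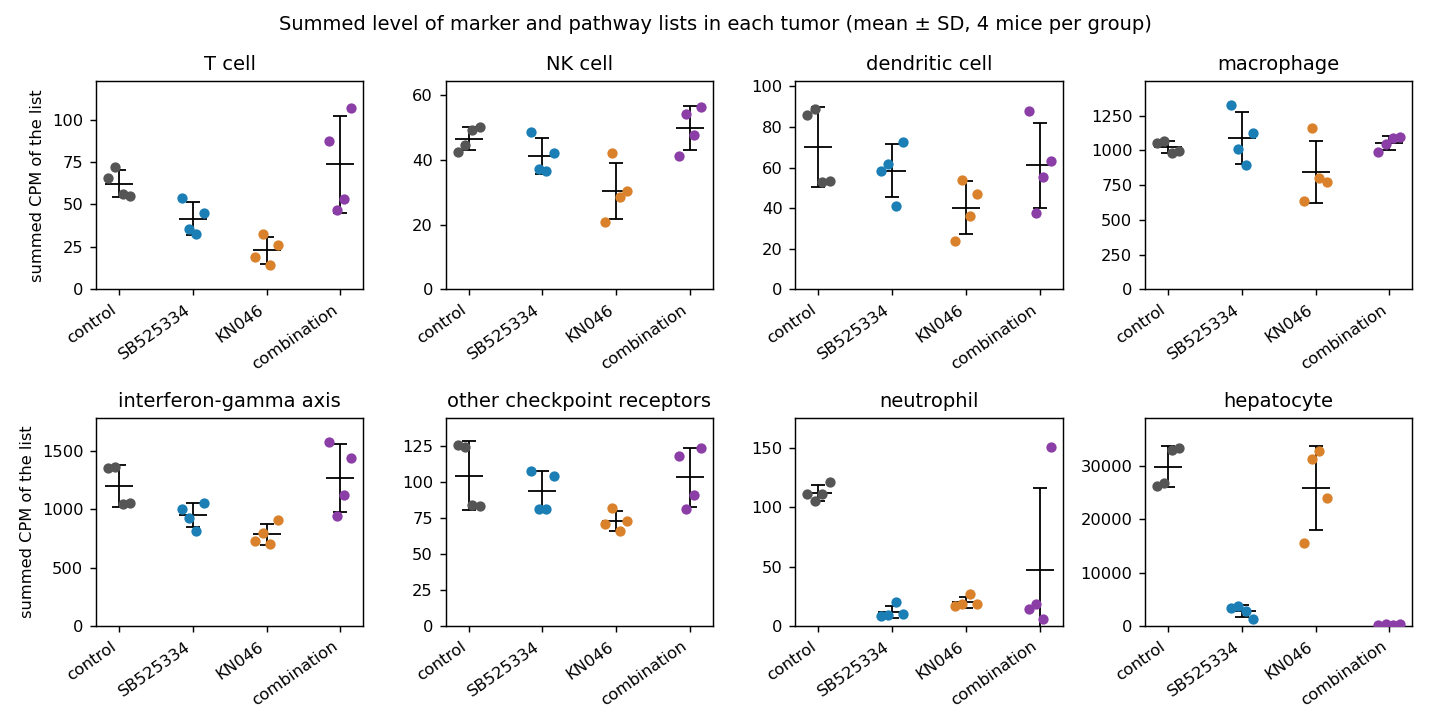
Summed CPM of marker and pathway gene lists in each tumor (vertical axis from 0, own scale per panel), by group, with bars for mean ± SD. T cell genes are lowest with KN046, at 14.3 to 32.7 CPM, and hepatocyte genes are lowest with the combination, at 249 to 423 CPM.

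Genes whose pattern over the 16 tumors was most like that of each member were sought among 12838 genes with a mean of at least 1 CPM, by Pearson correlation of log2(CPM + 0.5) and with no test, since the tumors share groups and libraries. Pdcd1 was most like Cxcl9 (r = 0.969), Nkg7 (0.968) and Gimap7 (0.96). Cd274 was most like Cd28 (0.908), Gimap5 (0.898) and Erap1 (0.876), while Pdcd1lg2 was most like Itgax (0.911), the CD11c gene of dendritic cells, Aldoc (0.909) and Tbc1d9 (0.908). Lag3 was closest to Il2rb (0.854), Ccl5 (0.851) and Prf1 (0.848), and Tnfrsf9 to Bst1 (0.926), Nos2 (0.871) and Slc16a3 (0.847). Havcr2 was closest to Rab8b (0.89), Il7r (0.889) and Fgl2 (0.855), Tigit to Cyfip2 (0.824), Gimap5 (0.819) and Irak2 (0.807), and Tox to Pla1a (0.838), Ppp1r14a (0.836) and Ripor2 (0.828). After subtraction of the group means none of the 3 leading genes stayed among the 3 for 5 of the 8 members, Cd274, Pdcd1, Lag3, Tigit and Tox. Havcr2 kept Rab8b (0.915) and Fgl2 (0.898), Tnfrsf9 kept Bst1 (0.878) and Pdcd1lg2 kept Aldoc (0.874).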

How the data were processed

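Total RNA of liver metastases from 16 mice was sequenced. Per the labels and the study's methods, the authors removed adapters (cutadapt 2.7), mapped to GRCm39 (HISAT2 2.2.1) and obtained gene counts by HTSeq 2.0.4. The strand setting is not given in the sources used here. The deposited raw counts, 1 table per mouse with no pooling, were used for all tests. The deposited normalized values, treated as a score, are raw counts divided by a DESeq2 1.38.3 size factor and rounded by the authors (100% of values within 1 of the quotient), and served as an alternative. Of 21959 Ensembl identifiers, 21770 matched GENCODE M39, from which symbols, coordinates and exonic lengths were taken.

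Counts were analysed with edgeR 4.0.16 in R 4.3.3 (TMM factors, genes kept by filterByExpr at min.count 10, quasi-likelihood tests, 1 fit of the 4 groups over 16 mice, biological coefficient of variation 20.1%). P-values were Benjamini-Hochberg adjusted over 13968 genes, with a threshold of 0.05. The study's tool, DESeq2 (1.42.0), and limma (3.58.1) were alternatives. The fits were tested on simulated data. CPM are on the TMM scale. Ratios to the CD3 genes used 0.1 CPM added to both terms and exact permutation tests.

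Named genes were all 8 members, the binding partners, at most 4 genes of smallest p from each other list, and the 3 genes of most similar pattern, with further called genes named after their values were seen where a count was 5 or fewer. The members, lists and tests were chosen with earlier results of these data known. The precision is set by 4 mice per group and by total counts of 18368994 to 23877131. Intervals give the uncertainty of an estimate, drawn from the spread between these samples. The controls among them may come from fewer than 4 animals. Some genes counted in the lists or in the search for similar patterns are not reported here by name.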

Additional observations from a re-analysis of the deposited data

Results flagged for a closer look

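Values that stood apart within a group of 4 tumors were sought by Dixon's criterion in 60 groups of values. It marked 4, and chance alone would mark about 3. SB525334 mouse 4 had the highest Pdcd1lg2 of its group at 4.14 CPM, and KN046 mouse 1 the highest Tigit of its group at 5.06 CPM. KN046 mouse 2 had a Tox level of 2.24 CPM, above the other 3 KN046 tumors. The log2 ratio of Tox to the CD3 genes was -3.24 in control 2, the lowest of the controls.

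The effect of SB525334 differed with and without KN046 for 4 of the 8 genes by the test of the interaction itself (edgeR), at 2.12 for Cd274, 1.92 for Pdcd1, 1.62 for Tnfrsf9 and 1.38 for Tigit on the log2 scale. The Tigit value in KN046 mouse 1 enters its estimate, and without that mouse the interaction for Tigit was 1.58.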

How the results depend on the processing

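The number of the 8 genes called in each comparison was recomputed with other scalings (DESeq2 size factors, upper quartile, without hepatocyte genes), other filters, other tools and fewer mice. Leaving out each control pair was added after seeing the data. The scalings and filters moved no count by more than 1.5 times. SB525334 against control called 3, but 1 with the control pairs averaged and 1 without either pair. KN046 against control called 1, but 0 for the 8 mice alone, with the pairs averaged or without either pair, 2 with limma-voom and 4 with DESeq2. The combination against SB525334 called 1, but 0 for the 8 mice alone and with limma-voom, and 2 with DESeq2. The interaction called 4, but 2 with the pairs averaged or without controls 1 and 2. On leaving out single mice the counts were 1 to 3 for SB525334, 0 to 1 for KN046, 0 for the combination against control, 2 to 3 against KN046, 0 to 1 against SB525334 and 3 to 4 for the interaction. The cause was not tested.

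Over all genes, KN046 against control called 559, but 75 for the 8 mice alone, 0 with pairs averaged, 8 without controls 3 and 4 and 1250 with DESeq2. Without single mice it called 157, 104, 70 and 65 (controls 1 to 4), and 21, 2096 and 60 (KN046 mice 1 to 3). The combination called 1552 against control, but 2560 without controls 3 and 4, 3406 against KN046, but 1855 for the 8 mice alone, and 499 against SB525334, but 294 for the 8 mice alone and 241 with limma-voom. The interaction called 598, but 297 with pairs averaged, 388 with limma-voom, 957 with DESeq2, 944 without KN046 mouse 2 and 377 without combination mouse 4.

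Estimates that changed sign belonged to uncalled comparisons. Without controls 1 and 2 these were Pdcd1lg2 (0.77 with SB525334, 0.47 with the combination), Havcr2 (0.30 with KN046) and Cd274 (0.35 with the combination). Without controls 3 and 4 they were Havcr2 (-0.31 with SB525334) and Tnfrsf9 (-0.13 with the combination). On leaving out single mice, the estimates ranged from -1.02 to 0.19 for Pdcd1lg2 and from -0.13 to 0.30 for Havcr2 with SB525334, and from -0.36 to 0.031 for Havcr2 with KN046. For the combination against control they ranged from -0.28 to 0.16 for Cd274, -0.011 to 0.31 for Lag3, -0.27 to 0.084 for Tigit and -0.13 to 0.19 for Tnfrsf9. They ranged from -0.51 to 0.17 for Tox against KN046 and from -0.74 to 0.47 for Pdcd1lg2 against SB525334.

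Same-numbered mice had correlations of -0.32 to 0.36 in their deviations from group means. Differently numbered mice were not compared in this way. Whether same-numbered mice were handled together is thus not settled, and the main fit did not pair them. With the replicate number as a block, KN046 against control called 2 of 8, adding Tnfrsf9 (adjusted p 0.0467), and Lag3 passed against KN046 (0.0229) and in the interaction (0.0305). The ratio tests called 0 in every setting, where the block allows no p under 0.125. Without a pseudocount the Pdcd1lg2 ratio had no value in KN046. Genes near 1 CPM, such as Tox and Pdcd1lg2, are limited by depth.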
